A study of Mus musculus with 3 samples.

Results

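The 9 genes Bambi, Grem1, Nog, Chrd, Fst, Id1, Id2, Id3 and Smad6, which act against or respond to bone morphogenetic protein (BMP) signalling, were followed in single cells sorted from mouse molars. They were chosen by name, and all 9 were found among the 21446 gene identifiers shared by the 3 libraries. In cells gated by Mia, 6 of them were higher than in the mean of the other mesenchymal gates. These were the BMP targets Id1, Id2 and Id3 and the antagonists Bambi, Grem1 and Nog. Of these calls only those of Bambi and Id2 were kept under every alternative processing. Bambi was also high in cells gated by Ifitm5, above the Mia gate at 25 days and 8 weeks. At postnatal day 15 (P15) Fst had its highest levels in Rgs5-gated cells and in the Krt14-gated epithelium.

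BMPs are secreted ligands that bring type I and type II receptor kinases together, and the activated receptors phosphorylate SMAD proteins that enter the nucleus and switch on target genes. The pathway is limited outside the cell by antagonists that bind the ligand, at the membrane by a receptor without a kinase, and inside the cell by inhibitory SMADs. Many of these inhibitors are themselves targets of the pathway. In teeth, BMP signalling is known for its part in the exchange between epithelium and mesenchyme and in the differentiation of cells that make mineralized matrix.

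All mice carried a Pthrp-mCherry knock-in, a reporter of the gene for parathyroid hormone-related protein, and no treatment is named in the labels. Reporter-positive cells, pooled over animals, were sorted from dissociated mandibular molars of mice aged 15 days (P15), 25 days (P25) or 8 weeks (P8w). With the 10x Chromium 3′ kit 1 library was made per age, so that no age has a replicate. The P15 library held 12926 cells with a median of 14253.5 unique molecular identifiers (UMIs, counts of single RNA molecules) per cell, the P25 library 8971 cells with 15834, and the 8-week library 5192 cells with 8712.5. The P25 counts came from Cell Ranger 6.0.1 and a larger gene reference than the others (6.1.2), which cannot be told apart from the age. From 13 to 26 cell barcodes were shared between any pair of libraries.

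Cells were divided by the UMIs of 8 genes. To pass a gate, a cell needed at least 2 UMIs of the gate gene, and a level of at least the mean of the top 1% of all cells divided by 10, in counts per 10000. This level was lowest for Pappa2 (0.787), Hand2 (0.799) and Mia (1.67). In cells of low depth the 2 UMIs ask for more than that, so these gates depend on depth, which was lowest at 8 weeks. The 6 mesenchymal gates were Ibsp (bone sialoprotein), Ifitm5 (a membrane protein of mineralizing cells), Hand2 (a transcription factor), Rgs5 (a gene of pericytes and other mural cells), Pappa2 (a protease acting on insulin-like growth factor binding proteins) and Mia (a small secreted protein). Krt14 gated epithelium and Ptprc (CD45) gated blood cells. In all, 10604 of 27089 cells fell in exactly 1 class, and from 54.6% to 64.1% of the cells of a library passed no gate. UMIs were summed per gate and library where there were at least 20 cells, which gave 21 sums. The Rgs5 gate, with 204, 11 and 12 cells at P15, P25 and 8 weeks, entered with its P15 sum alone, and the Ptprc gate, with 715, 178 and 17 cells, with P15 and P25.

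The labels call the sorted cells cementoblasts and their precursors, but epithelial and blood cells were present as well. Krt5, Trp63, Epcam and Krt17 together reached from 6249 to 9773 UMIs per 1000000 (CPM) in the Krt14 gate and at most 82.6 CPM in any other. Apod, Gpha2 and Ogn reached from 3285 to 4883 CPM in the Mia gate, above every other sum. The gates and marker lists were chosen with earlier results of these data known, so these levels describe the gates and do not test them. Dmp1, Enpp1, Ank and Wnt5a did not part the Ibsp gate (from 1287 to 1606 CPM) from the Ifitm5 gate (from 1110 to 1734 CPM). The list of the Ifitm5 gate (Dmp1, Phex, Bglap, Col11a2 and Smpd3) did. It reached from 10176 to 29896 CPM in the Ifitm5 gate and from 1264 to 3358 CPM in the Ibsp gate. The mural markers Notch3, Kcnj8, Abcc9, Acta2 and Pdgfrb summed to 3691 CPM in the Rgs5 gate at P15. The endothelial markers Pecam1, Cdh5, Kdr, Flt1 and Egfl7 summed to at most 39.8 CPM in any mesenchymal sum.

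Levels below are CPM of the shared genes, followed in brackets by exact Poisson intervals at 95%, which cover counting error only. Gates were compared by edgeR's quasi-likelihood test on the sums, with Benjamini-Hochberg adjustment over 14643 genes and a call at an adjusted p under 0.05. Each mesenchymal gate was set against the mean of the other 5, and the Krt14 and Ptprc gates against the mean of all 6. The libraries of different ages stood as the replicates of a gate, so the spread between them holds age as well as library. The lone Rgs5 sum was assumed to vary like the other gates.

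**Figure D1:**
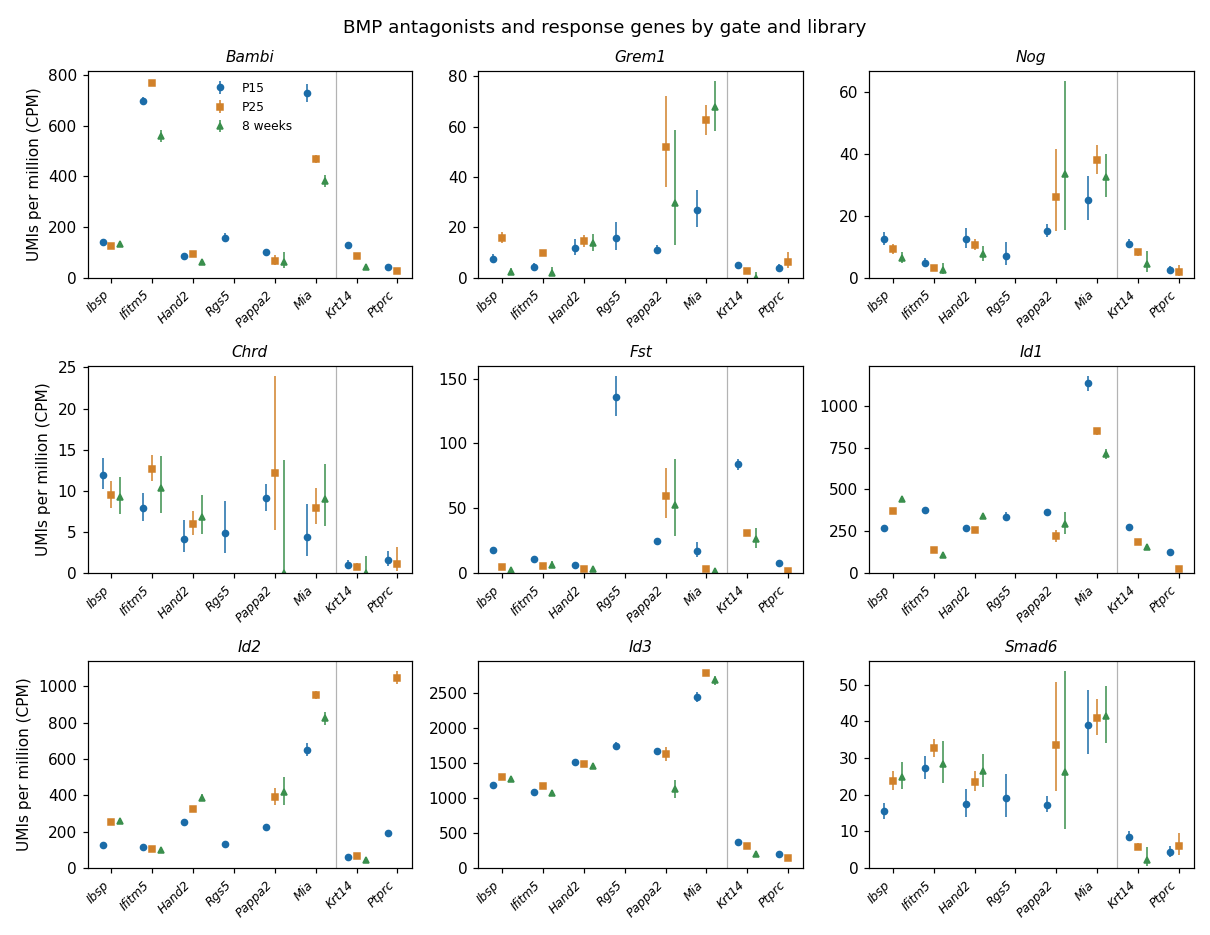
Levels of the 9 genes in UMIs per 1000000 (CPM, linear axes) by gate, with a point for each library (P15, P25 and 8 weeks) that held at least 20 cells and bars for the exact Poisson 95% interval. The grey line parts the 6 mesenchymal gates from Krt14 and Ptprc. Bambi is high in the Ifitm5 and Mia gates, Id1 and Id3 are highest in the Mia gate at every age, and Fst is highest in the Rgs5 gate at P15.

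Bambi encodes a membrane protein that resembles a type I BMP receptor but has no kinase, and it dampens signalling (ENSMUSG00000024232, chromosome 18, 3507923 to 3516404, plus strand, GRCm38). Its level in the Ifitm5 gate was 699 (683 to 715) CPM at P15, 768 (756 to 780) at P25 and 559 (535 to 584) at 8 weeks. In the Ibsp gate it was 139 (132 to 145), 125 (120 to 131) and 131 (122 to 139) CPM. The counting intervals of the gates did not overlap, and the Ifitm5 gate held 5.04, 6.13 and 4.28 times the Bambi of the Ibsp gate at the 3 ages. The fitted log2 fold change between them was 2.57 ± 0.39 (SE; adjusted p = 0.00362, edgeR), the only call among the 9 genes in a comparison where 1.19% of all genes were higher and 0.471% lower. This call was lost without P25 (adjusted p = 0.45) and without the 8-week library (0.0614), with log2 fold changes of 2.35 and 2.65. Cells could pass both thresholds, as 804 did, and these were counted in the Ifitm5 gate unless a Ptprc, Krt14 or Rgs5 gate was passed too. With cells past exactly 1 gate the log2 fold change was 3.18 (adjusted p = 0.000548, edgeR). Against the mean of the other mesenchymal gates, Bambi in the Ifitm5 gate was higher by a log2 fold change of 2.50 ± 0.27 (adjusted p = 2.07e-05, edgeR), and its adjusted p was at most 0.0155 over all alternatives. The odontoblast markers Dspp, Dmp1 and Phex summed to 416, 539 and 620 CPM in the Ifitm5 gate, to 231, 124 and 130 in the Ibsp gate, and to between 2.44 and 224 CPM in the other mesenchymal sums. Of these Dspp, the gene of the main dentin protein, was at 35 and 25.1 CPM in the Ifitm5 gate at P15 and P25, with no UMI at 8 weeks, which allows up to 0.837 CPM at 3 counts. The part of odontoblasts in the Ifitm5 differences was not tested.

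The Mia gate was the other gate rich in Bambi, with 729 (693 to 767) CPM at P15, 470 (454 to 486) at P25 and 380 (357 to 404) at 8 weeks. In plain CPM its level over that of the Ifitm5 gate was 1.04 (0.986 to 1.1) at P15, within counting error. The ratio was 0.612 (0.589 to 0.636) at P25 and 0.68 (0.63 to 0.733) at 8 weeks. Scaled by trimmed mean of M-values (TMM), as in the tests, Bambi at P15 was at 640 CPM in the Mia gate and 729 in the Ifitm5 gate. The log2 fold change in the Mia gate was 1.69 ± 0.28 (adjusted p = 0.000834, edgeR), with an adjusted p of at most 0.0342 over all alternatives. In the Hand2 gate the levels were 84.7, 93.7 and 60.9 CPM, and in the Pappa2 gate 101, 67 and 63.3 CPM, below the Ibsp gate in each library. Bambi was lower in both than in the other mesenchymal gates, by a log2 fold change of -1.53 ± 0.33 in the Hand2 gate (adjusted p = 0.0175, edgeR) and -1.55 ± 0.34 in the Pappa2 gate (adjusted p = 0.031, edgeR). Neither difference was called without P25 (adjusted p = 0.216 and 0.477) or without the 8-week library (0.0915 and 0.14). The Rgs5 gate at P15 held 158 (142 to 175) CPM. Cells past no gate held 339 (335 to 342) CPM at P15, 185 (182 to 188) at P25 and 192 (186.6 to 197.5) at 8 weeks. In each library this was below the Ifitm5 and Mia gates and above the other mesenchymal sums. These cells held 70.45%, 37% and 52.2% of the Bambi UMIs. The paper lists Bambi and Id1 as markers of a cementoblast precursor cluster, none of whose listed markers served as a gate. The part of that cluster in these cells was not tested.

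The gates also differed in the share of cells with Bambi RNA. After each cell had been thinned to 3000 UMIs, 59.3% of Ifitm5-gated cells had at least 1 Bambi UMI at P15, 70% at P25 and 52% at 8 weeks. In the Mia gate the shares were 74.8%, 62.5% and 55.3%, and in the Ibsp gate 28%, 26.3% and 21.8%. Ptprc-gated blood cells served as a reference for free RNA, and 6.72% of them had a Bambi UMI at P15 and 6.18% at P25. Their median depth was 9357 and 14906.5 UMIs, against 17195 and 23244 in the Ifitm5 gate. Without thinning, 88.8%, 92.2% and 77% of Ifitm5-gated cells had a Bambi UMI.

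Grem1, Nog and Chrd encode secreted proteins that bind BMPs and keep them from their receptors. Grem1, the gene of gremlin (ENSMUSG00000074934, chromosome 2, 113746164 to 113758646, minus strand, GRCm38), was highest in the Mia gate in every library, with 26.9 (20.2 to 34.9) CPM at P15, 62.5 (56.8 to 68.8) at P25 and 67.7 (58.2 to 78.3) at 8 weeks. The Hand2 gate held 11.9, 14.4 and 13.6 CPM and the Ifitm5 gate 4.17, 9.68 and 1.95 CPM, the first of which was close to the 3.66 CPM of blood cells in the same library. The interval of the Pappa2 gate met that of the Mia gate at P25, at 51.7 (35.8 to 72.3) CPM. In the Mia gate Grem1 was higher than in the other mesenchymal gates by a log2 fold change of 2.04 ± 0.53 (adjusted p = 0.0194, edgeR). The call was lost without P15 (adjusted p = 0.067), without P25 (0.0645) and without the 8-week library (0.132). Most Grem1 lay outside the gates, since cells past no gate held 89.8%, 86.5% and 83.7% of its UMIs, at 44.3, 99.5 and 59 CPM. These cells were 64.1%, 54.6% and 61.2% of the libraries. They also held most UMIs of the other members in every library, except those of Bambi at P25 (37%).

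Nog, the gene of noggin (ENSMUSG00000048616, chromosome 11, 89300638 to 89302332, minus strand, GRCm38), was at 24.9 (18.5 to 32.7), 38 (33.6 to 43) and 32.4 (25.9 to 39.9) CPM in the Mia gate from P15 to 8 weeks. It was at 4.73 (3.52 to 6.22), 3.16 (2.43 to 4.04) and 2.51 (1.15 to 4.77) CPM in the Ifitm5 gate, the lowest of the mesenchymal sums in every library. The Ibsp gate lay above it with 12.5, 9.08 and 6.26 CPM. Nog was higher in the Mia gate by a log2 fold change of 1.81 ± 0.27 (adjusted p = 0.000336, edgeR) and lower in the Ifitm5 gate by -1.66 ± 0.33 (adjusted p = 0.00328, edgeR). Both calls were lost without P25 (adjusted p = 0.0558 and 0.154) and when every sum was thinned to the smallest (0.216 and 0.306). With the library as a block, Nog was also lower in the Ifitm5 gate than in the Ibsp gate (adjusted p = 0.0493, against 0.123 without the block, edgeR).

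Chrd, the gene of chordin (ENSMUSG00000006958, chromosome 16, 20733127 to 20742384, plus strand, GRCm38), was found at low levels in the mesenchymal gates and was not called between them. It was at 12, 9.42 and 9.18 CPM in the Ibsp gate, at 7.88, 12.6 and 10.3 in the Ifitm5 gate and at 4.16, 5.95 and 6.81 in the Hand2 gate. The Krt14 gate held 0.968 (0.573 to 1.53) CPM at P15, 0.75 (0.451 to 1.17) at P25 and no UMI at 8 weeks, which allows up to 1.64 CPM at 3 counts and 2.02 CPM by the exact interval. Chrd was lower there than in the mesenchymal gates by a log2 fold change of -3.10 ± 0.48 (adjusted p = 5.14e-05, edgeR), a call kept under the alternatives that tested it, which the thinned sums did not.

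Fst encodes follistatin, which binds activins and, less tightly, some BMPs (ENSMUSG00000021765, chromosome 13, 114452290 to 114458951, minus strand, GRCm38). It was at 136 (121 to 152) CPM in the Rgs5 gate at P15, against 5.55 (3.69 to 8.02) in the Hand2 gate, 17.2 in the Ibsp gate and 24.1 in the Pappa2 gate of that library. It was found in 16.4% of thinned Rgs5-gated cells at P15, 4.49% of Pappa2-gated cells and 0.763% of blood cells. The fitted log2 fold change over the other mesenchymal gates was 3.72 ± 0.70 (adjusted p = 0.00346, edgeR). This rests on 1 sum at P15 with no replicate of the gate, set against gates of all ages, while Fst over all cells at P25 and 8 weeks was 0.316 and 0.268 times its P15 level. With the library as a block the log2 fold change was 2.98 (adjusted p = 0.00567, edgeR). It was not called with looser gates at a level divided by 20 (adjusted p = 0.0988) or with gates of 3 UMIs (0.0577). The red cell markers Hba-a1, Hbb-bs and Alas2 summed to 1319 CPM in this sum, against 66.4 to 454 CPM in the other mesenchymal sums at P15, and their part in the result was not tested.

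Epithelium held Fst as well. The Krt14 gate held 83.7 (79.6 to 88) CPM at P15, 31.1 (28.9 to 33.3) at P25 and 26.3 (19.4 to 34.9) at 8 weeks, above the Ibsp, Ifitm5, Hand2 and Mia gates in each library. The Pappa2 gate was below it at P15 and above it at P25, with 59.3 (42.2 to 81.1) CPM. At 8 weeks the Pappa2 gate held 52.2 (28.5 to 87.5) CPM, and the intervals of the 2 gates overlapped. The log2 fold change over the mesenchymal gates was 1.90 ± 0.54 (adjusted p = 0.00716, edgeR), with an adjusted p of at most 0.0425 over all alternatives. In the Hand2 gate Fst had a log2 fold change of -2.35 ± 0.76 and an adjusted p of 0.102, or 0.033 with the library as a block and 0.036 without P15 (edgeR). Leaving out P15 also brought Fst in the Pappa2 gate to a call (adjusted p = 0.000519, against 0.242 with all libraries) and in the Mia gate (0.016 against 0.258, edgeR). These 2 gates went opposite ways, with log2 fold changes of 1.83 in the Pappa2 gate and -1.42 in the Mia gate with all libraries. Without P15 the Pappa2 gate rests on sums of 38 and 22 cells. Leaving out P15 also takes the Rgs5 gate, which held the most Fst at P15, out of the mean that these gates were set against.

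Id1, Id2 and Id3 are early targets of BMP signalling. They encode proteins that pair with basic helix-loop-helix transcription factors but cannot bind DNA, and so hold these factors back. Id1 (ENSMUSG00000042745, chromosome 2, 152736251 to 152737410, plus strand, GRCm38) was at 1137 (1091 to 1184) CPM in the Mia gate at P15, 849 (827 to 871) at P25 and 713 (681 to 746) at 8 weeks. The other mesenchymal sums lay between 108 and 443 CPM and did not overlap it. Its log2 fold change in the Mia gate was 1.57 ± 0.37 (adjusted p = 0.0116, edgeR), which was not called without P25 (0.0734) or without the 8-week library (0.0994). After thinning, 85.9%, 77.7% and 77% of Mia-gated cells had an Id1 UMI, against 19.9% and 5.62% of blood cells at P15 and P25, with a median depth of 14102 and 13381 UMIs in the Mia gate at these ages.

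Id2 (ENSMUSG00000020644, chromosome 12, 25093799 to 25097140, minus strand, GRCm38) was at 650 (616 to 686), 952 (929 to 975) and 823 (789 to 858) CPM in the Mia gate. In the Ifitm5 gate it was at 114 (108 to 121), 104 (99.2 to 108) and 97.9 (88 to 109) CPM, the lowest mesenchymal sum in each library in plain CPM. At P15 the Ibsp gate held 125 (119 to 131) CPM, and the Ifitm5 gate held 0.913 times its level (0.847 to 0.984). Scaled by TMM, the P15 Rgs5 sum was below the Ifitm5 sum, at 113.7 against 119.1 CPM. Id2 was higher in the Mia gate by a log2 fold change of 1.98 ± 0.30 (adjusted p = 0.000403, edgeR), a call kept under every alternative, and lower in the Ifitm5 gate by -1.22 ± 0.35 (adjusted p = 0.0331, edgeR), a call lost without P25 (0.114) or without the 8-week library (0.284). Blood cells held 193 (184 to 203) CPM at P15 and 1048 (1010 to 1086) at P25, so that the P15 sum lay within the range of the mesenchymal gates and the P25 sum above it. Their log2 fold change over the mesenchymal gates, 1.29 ± 0.34 (adjusted p = 0.00429, edgeR), had an adjusted p of 0.867 without P25.

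Id3 (ENSMUSG00000007872, chromosome 4, 136143497 to 136145755, plus strand, GRCm38) was at 2436 (2369 to 2504) CPM in the Mia gate at P15, 2776 (2736 to 2815) at P25 and 2674 (2612 to 2736) at 8 weeks. The other mesenchymal sums lay between 1070 and 1742 CPM, again with no overlap. Id3 was higher in the Mia gate by a log2 fold change of 0.86 ± 0.20 (adjusted p = 0.00975, edgeR), a call lost without P25 (0.106) or without the 8-week library (0.0847). Epithelium held 364, 308 and 202 CPM and blood cells 198 and 134 CPM at P15 and P25, far below the mesenchymal sums. The log2 fold changes were -2.25 ± 0.24 in the Krt14 gate (adjusted p = 1.3e-06, edgeR) and -3.05 ± 0.31 in the Ptprc gate (adjusted p = 5.3e-07, edgeR), and both calls were kept under every alternative.

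Smad6 encodes an inhibitory SMAD that BMP signalling induces and that acts back on the receptors and on SMAD1 (ENSMUSG00000036867, chromosome 9, 63953076 to 64022059, minus strand, GRCm38). Its level in the Mia gate was 39 (31 to 48.6) CPM at P15, 41 (36.3 to 46) at P25 and 41.3 (34 to 49.7) at 8 weeks. In plain CPM these were the highest of the sums in each library. Scaled by TMM, the Ifitm5 gate was above the Mia gate at P25, at 41.75 against 40.31 CPM. In plain CPM the Ifitm5 gate followed at P15 and 8 weeks, with 27.3, 32.6 and 28.5 CPM over the 3 ages. At P25 the Pappa2 gate, with 33.5 (21 to 50.7) CPM, was within counting error of both gates. The Mia gate's log2 fold change of 0.76 ± 0.24 did not pass the threshold (adjusted p = 0.0534), and passed it with the library as a block (0.0329, edgeR). In epithelium Smad6 was at 8.49, 5.64 and 2.19 CPM, lower by a log2 fold change of -1.90 ± 0.29 (adjusted p = 3.72e-05, edgeR).

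Across the 21 sums, Id3 and Smad6 had the most similar profiles of any pair among the 9 genes, with a Pearson r of 0.905 on log2 CPM. Id1 and Id3 followed (0.753), then Nog and Id1 (0.728), Chrd and Smad6 (0.725), Grem1 and Id2 (0.719) and Grem1 and Smad6 (0.714). These are descriptions over sums that share libraries, and the epithelial and blood sums lie low for both Id3 and Smad6. Chrd was low in these sums too. The Krt14 sum at 8 weeks, the lowest in Smad6 (2.17 CPM scaled by TMM), held no UMI of Chrd or Grem1. No correlation over the mesenchymal sums alone was computed. Among 6277 genes with a mean of at least 20 CPM, those most like Smad6 were Bgn (0.956) and Pdgfrl (0.955), and those most like Id3 were Armcx1 (0.972) and Rcn2 (0.97). Bambi was most like Lurap1l (0.925) and Pck2 (0.91), Grem1 most like Aspn (0.889) and Mfap4 (0.884), and Nog most like Plagl1 (0.914) and Fbln1 (0.875). Id1 was most like Dlx2 (0.903) and H1fx (0.851) and Id2 most like Kctd12 (0.907) and Elovl5 (0.893), while Chrd was most like Fam195b (0.932) and Anapc16 (0.922) and Fst most like Nfib (0.804) and Pdha1 (0.783).

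**Figure D2:**
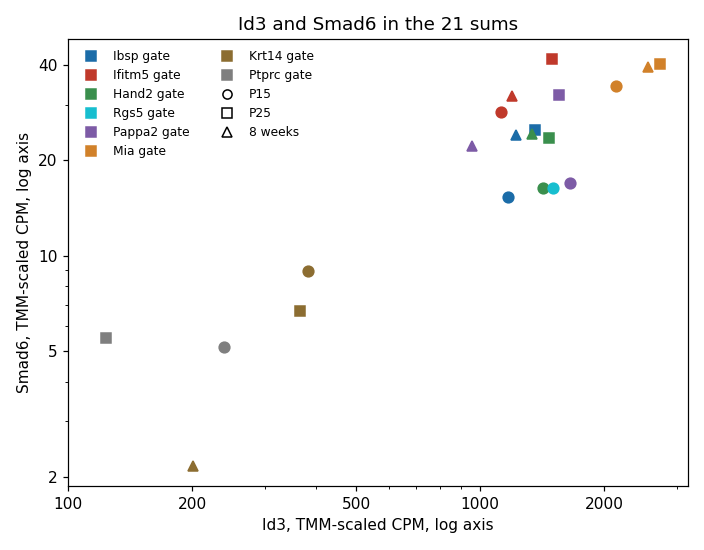
Smad6 against Id3 in the 21 sums, both as CPM scaled by trimmed mean of M-values (TMM) on log axes, with the gate by colour and the library by shape. The epithelial and blood sums lie at the lower left and the Mia sums at the upper right, with r = 0.905 on log2 CPM.

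RefSeq promoters of GRCm38.p6 were matched by symbol for 5 of the 9 genes. The 250 bases before the start of Smad6, Chrd and Grem1 are shown, in which no exon annotated by GENCODE falls. The levels of Chrd and Grem1 were each correlated with those of Smad6 across all sums, the epithelial and blood sums included. The windows of Id2 and Id3 overlap exons of these genes and are not shown. Smad6 spans chr9:64022060-64022309 on the minus strand, Chrd chr16:20732877-20733126 on the plus strand and Grem1 chr2:113758649-113758898 on the minus strand. Capitals mark GGCGCC, a GC-rich motif of SMAD1 and SMAD5 that is its own reverse complement, and GTCTG or its reverse complement CAGAC, an element of SMAD4.
Smad6: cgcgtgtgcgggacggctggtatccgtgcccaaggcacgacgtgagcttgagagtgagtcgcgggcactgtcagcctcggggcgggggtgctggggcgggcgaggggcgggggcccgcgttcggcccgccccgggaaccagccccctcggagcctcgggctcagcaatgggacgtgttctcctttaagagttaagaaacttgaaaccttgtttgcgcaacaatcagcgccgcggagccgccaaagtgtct
Chrd: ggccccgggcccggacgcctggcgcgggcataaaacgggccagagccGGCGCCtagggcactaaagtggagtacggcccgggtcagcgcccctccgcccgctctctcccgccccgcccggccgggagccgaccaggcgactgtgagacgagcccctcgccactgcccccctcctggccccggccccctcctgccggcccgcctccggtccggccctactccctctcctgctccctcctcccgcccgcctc
Grem1: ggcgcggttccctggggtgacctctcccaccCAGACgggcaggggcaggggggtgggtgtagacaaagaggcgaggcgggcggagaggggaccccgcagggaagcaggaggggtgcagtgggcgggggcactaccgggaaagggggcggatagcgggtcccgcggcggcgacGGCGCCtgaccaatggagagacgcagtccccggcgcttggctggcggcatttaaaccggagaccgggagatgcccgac
GGCGCC was found once before Chrd, once before Grem1 and not before Smad6, and 9.54% of 27025 windows of the same length hold it. GTCTG or CAGAC was found once before Grem1 and not before Chrd or Smad6, and 42.1% of all windows hold it. A match describes these letters, and no binding was measured.

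By gate, the Mia gate held the most calls within the mesenchyme. There 6 of the 9 genes were higher (Bambi, Grem1, Nog, Id1, Id2 and Id3), where 7.55% of all genes were higher, and none was lower, where 4.56% of all genes were lower. The median log2 fold change of the 9 was 1.57, against -0.01 over all genes. Without P25 the number called was 2 (Bambi and Id2), and without the 8-week library 3 (Bambi, Nog and Id2). The 10 dissociation stress genes, Fos, Jun and Egr1 among them, summed to 14063, 26911 and 35994 CPM in the Mia gate, against 8135 to 12220 CPM in the Ibsp and Ifitm5 gates. The Pappa2 gate held 15536, 15239 and 21815 CPM of them, with Id1 at 366, 219 and 291 CPM, so that the stress genes in the Mia gate were below those of the Pappa2 gate at P15 and above them at P25 and 8 weeks. At P25 the red cell markers summed to 1254 CPM in the Mia gate, 1174 in the Hand2 gate and 1055 in the Ifitm5 gate, against 27.9 in the Ibsp gate and 18.3 in the Pappa2 gate. The part of stress genes and of red cell RNA in the calls of these gates was not tested.

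In the Ifitm5 gate 1 of the 9 was higher (Bambi) and 2 were lower (Nog and Id2), where 7.29% of all genes were higher and 3.82% lower, and without P25 Bambi was the 1 call. In the Hand2 and Pappa2 gates Bambi was the 1 member called, and it was lower in both. Of all genes, 2.22% were higher and 1.47% lower in the Hand2 gate, and 1.26% higher and 0.171% lower in the Pappa2 gate. In the Rgs5 gate, with its 1 sum, Fst was the 1 call, higher, where 3.93% of genes were higher and 0.738% lower. In the Ibsp gate 0 of the 9 were called by edgeR, 0 had an unadjusted p under 0.05 and 0 were called by DESeq2, where 2.26% of genes were higher and 0.826% lower. The log2 fold change furthest from 0 there was that of Grem1, -0.96 ± 0.61.

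Epithelium and blood differed from the mesenchyme in many genes. In the Krt14 gate 6 of the 9 were lower (Bambi, Grem1, Chrd, Id2, Id3 and Smad6) and 1 was higher (Fst), where 24.5% of all genes were lower and 27% higher. Without P25, Bambi (0.104) and Grem1 (0.121) were not called there by adjusted p in edgeR, nor was Bambi without the 8-week library (0.0679). In the Ptprc gate 6 were lower (Bambi, Nog, Chrd, Id1, Id3 and Smad6) and 1 was higher (Id2), where 22.8% of all genes were lower and 27.2% higher. Without P25, which leaves the Ptprc gate with its P15 sum, 2 were called there (Id3 and Smad6). In epithelium Id1, at 273, 182 and 154 CPM, and Nog, at 11, 8.17 and 4.38 CPM, did not pass the threshold against the mesenchyme (adjusted p = 0.221 and 0.534, edgeR), and Id1 was lower there without P15 (0.00711).

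**Figure D3:**
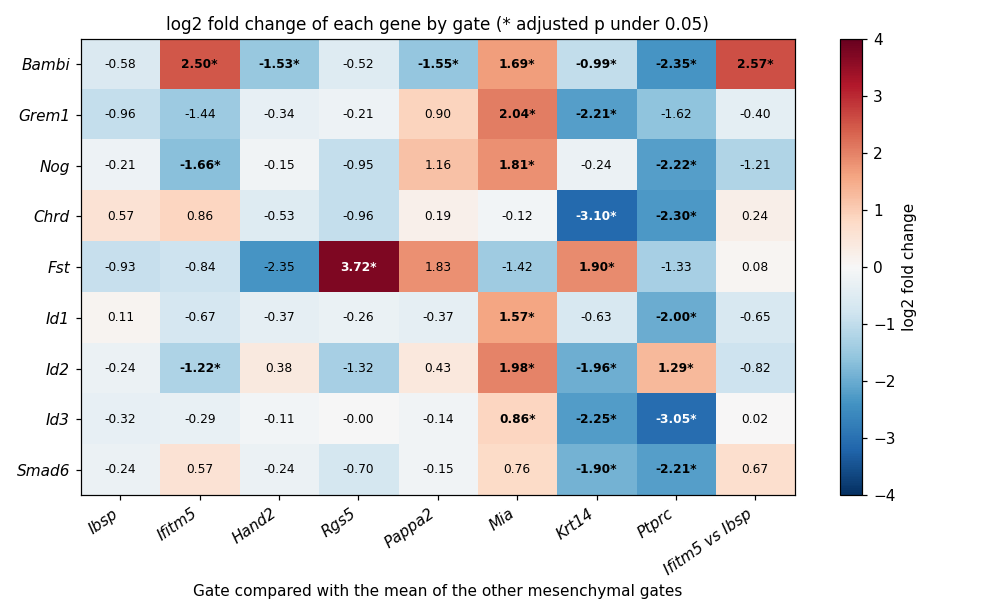
Log2 fold change of each gene (top to bottom) in each gate (left to right) against the mean of the other mesenchymal gates, and in the Ifitm5 gate against the Ibsp gate at the right edge, from edgeR. Bold values with an asterisk had an adjusted p under 0.05, and colour runs from blue (lower) to red (higher). The Mia gate shows 6 higher genes, and the Krt14 and Ptprc gates show 6 lower genes and 1 higher gene each.

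Of 51 other genes of the pathway, 47 could be tested. Of 9 tested genes listed as ligands, from a list that includes the protease gene Bmp1, 4 were higher in the Ibsp gate. These were Bmp8a (log2 fold change 5.16 ± 0.40), Bmp3 (2.76 ± 0.48), Bmp2 (1.99 ± 0.36) and Bmp7 (1.49 ± 0.24). In the Ifitm5 gate these 4 were also higher, Bmp8a by 6.20 ± 0.42, Bmp3 by 2.58 ± 0.47, Bmp2 by 1.40 ± 0.37 and Bmp7 by 1.26 ± 0.24. Ifitm5-gated cells were lower in the ligands Gdf10 (-3.77 ± 0.93) and Bmp5 (-3.57 ± 0.78) and in the co-receptor Rgma (-2.64 ± 0.44). Ibsp-gated cells were lower in the response genes Atoh8 (-1.59 ± 0.39) and Hey1 (-1.12 ± 0.29) and in Rgma (-1.45 ± 0.38). Of the whole list, 5 genes were higher and 3 lower in the Ibsp gate, and 6 higher and 7 lower in the Ifitm5 gate. The shares over all genes were 2.26% higher and 0.826% lower in the Ibsp gate, and 7.29% and 3.82% in the Ifitm5 gate. Errors are SE, and every pathway gene given with a fold change, in these and the other gates, passed an adjusted p of 0.05 in edgeR.

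In the Mia gate 12 of the 47 were higher and 2 lower, where 7.55% of all genes were higher and 4.56% lower. The 2 lower ones were the ligands Bmp3 (-3.33 ± 0.65) and Bmp8a (-3.22 ± 0.98). Among the higher were the secreted antagonist Sostdc1 (2.78 ± 0.60), the ligand Gdf10 (2.42 ± 0.62) and the signal transducer Smad9 (1.68 ± 0.33). Of the intracellular inhibitors 3 of 6 were higher there, and of the response genes 3 of 9. The Hand2 gate was higher in the antagonists Chrdl2 (5.30 ± 1.05) and Fstl3 (0.75 ± 0.19), and the Pappa2 gate in Gdf10 (4.31 ± 0.65) and the antagonist Chrdl1 (3.62 ± 0.77), 2 of the 47 in each. The shares over all genes were 2.22% higher and 1.47% lower in the Hand2 gate, and 1.26% and 0.171% in the Pappa2 gate. No gene of the list was lower in the Hand2 or Pappa2 gate by edgeR. At an unadjusted p under 0.05, 3 and 4 were lower there, and by DESeq2 0 and 2. The single Rgs5 sum, with no replicate of its gate, was higher in Bmp5 (4.35 ± 0.62), Id4 (2.76 ± 0.69) and Rgma (2.23 ± 0.47) and lower in Bmp7 (-2.51 ± 0.53). In epithelium 27 of the 47 were lower and 4 higher, the latter led by Sostdc1 (2.59 ± 0.56). In blood cells 29 were lower and 1, the receptor Acvrl1 (1.94 ± 0.35), was higher. The shares over all genes were 24.5% lower and 27% higher in epithelium, and 22.8% and 27.2% in blood cells. For Ifitm5 against Ibsp 0 of the 47 were called by edgeR, which called 1.19% of all genes higher and 0.471% lower. At an unadjusted p under 0.05 in edgeR, 4 of the 47 were higher and 6 lower, and DESeq2 called 0 higher and 4 lower.

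With 1 library per age, the time course is a description with no test. Between P15 and 8 weeks none of the 6 genes with at least 20 CPM passed 2-fold on the mean of 5 mesenchymal gates (Ibsp, Ifitm5, Hand2, Pappa2 and Mia), a size reached by 2.33% of 6321 genes with at least 20 CPM upward and by 1.9% downward. Nog, Chrd and Fst were under the 20 CPM level, and the mean log2 ratio of Fst was -1.38 ± 1.70 (SD over gates). Bambi was lower at 8 weeks in 5 of 5 gates, by a mean log2 ratio of -0.51 ± 0.34 (SD over gates). Smad6 was higher in 5 of 5, by 0.39 ± 0.21, and Id2 in 4 of 5, by 0.53 ± 0.41. In plain CPM the Smad6 ratio was above 1 in the Ibsp gate (1.61 times, 1.31 to 1.98) and the Hand2 gate (1.51 times, 1.15 to 1.99). It was within counting error of 1 in the Ifitm5 (1.04 times, 0.825 to 1.31), Pappa2 (1.51 times, 0.602 to 3.17) and Mia gates (1.06 times, 0.786 to 1.43). Id3 was close to level, at -0.09 ± 0.41. For Id1 (-0.36 ± 0.93) and Grem1 (0.06 ± 1.32) the gates differed in direction.

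Id1 parted the Ibsp and Ifitm5 gates over time. In the Ibsp gate it was at 269 (260 to 278) CPM at P15, 370 (361 to 380) at P25 and 443 (428 to 458) at 8 weeks. In the Ifitm5 gate it was at 378 (366 to 390), 136 (131 to 141) and 108 (97.2 to 119) CPM. The level in the Ifitm5 gate over that in the Ibsp gate was 1.41 (1.34 to 1.47) at P15 and 0.243 (0.218 to 0.27) at 8 weeks, so that the order of the gates was turned. Over all libraries their difference was not called (adjusted p = 0.694), and without P15 it was (0.00655, edgeR), as was that of Id2 (0.0254 against 0.428). Of the Ibsp-gated cells, 25, 454 and 378 in the order of age also passed the Hand2 gate. Without them its Id1 was at 267, 353 and 370 CPM. The cells of the Ifitm5 gate differed with age as well. Their markers Dmp1, Phex, Bglap, Col11a2 and Smpd3 summed to 10176, 18409 and 29896 CPM. Of these cells 227 of 571, 474 of 774 and 113 of 282 passed exactly 1 gate. The part of these differences in the Id1 levels was not tested. In cells past no gate Id1 was at 682, 326 and 374 CPM.

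Id2 was at 125 (119 to 131), 252 (244 to 261) and 257 (246 to 269) CPM in the Ibsp gate from P15 to 8 weeks, which is 2.06 times its P15 level at 8 weeks (1.92 to 2.2). In the Hand2, Pappa2 and Mia gates the ratio was 1.55, 1.87 and 1.26, and in the Ifitm5 gate it was below 1 (0.858 times, 0.76 to 0.967). Bambi at 8 weeks was below its P15 level in the Mia gate (0.521 times, 0.481 to 0.565) and in the Krt14 gate (0.316 times, 0.247 to 0.398). In the Ibsp gate (0.942 times, 0.869 to 1.02) and the Pappa2 gate (0.6258 times, 0.3635 to 1.006) the ratio did not differ from 1 by more than counting error.

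Fst was lower at 8 weeks than at P15 in most classes. In the Ibsp gate it was at 17.2 (15.1 to 19.7), 4.23 (3.25 to 5.43) and 2.09 (1.17 to 3.44) CPM, and in the Mia gate at 17.1 (11.9 to 23.8), 3.21 (2.01 to 4.86) and 1.49 (0.406 to 3.81). Fst in the Ibsp gate at 8 weeks was 0.121 times its P15 level (0.0666 to 0.204). Without the Ibsp-gated cells that also passed the Hand2 gate it was 0.246 times (0.135 to 0.414). Cells past no gate held 69.1, 22.9 and 22.9 CPM at P15, P25 and 8 weeks. The Pappa2 gate was the exception, at 24.1 (21.6 to 26.8), 59.3 (42.2 to 81.1) and 52.2 (28.5 to 87.5) CPM, the later values from 38 and 22 cells. From P15 to 8 weeks its markers Col13a1, Spon2 and Alpl summed to 788, 583 and 388 CPM in it. The Hand2 gate markers Nts, Alx1, Tnn and Csrp2 summed there to 697, 1535 and 4184 CPM. The part of such a change in the cells of the Pappa2 gate was not tested. Grem1 was higher at 8 weeks than at P15 in the Mia gate (2.52 times, 1.86 to 3.48) and lower in the Ibsp gate (0.314 times, 0.176 to 0.529), where it was highest at P25.

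**Figure D4:**
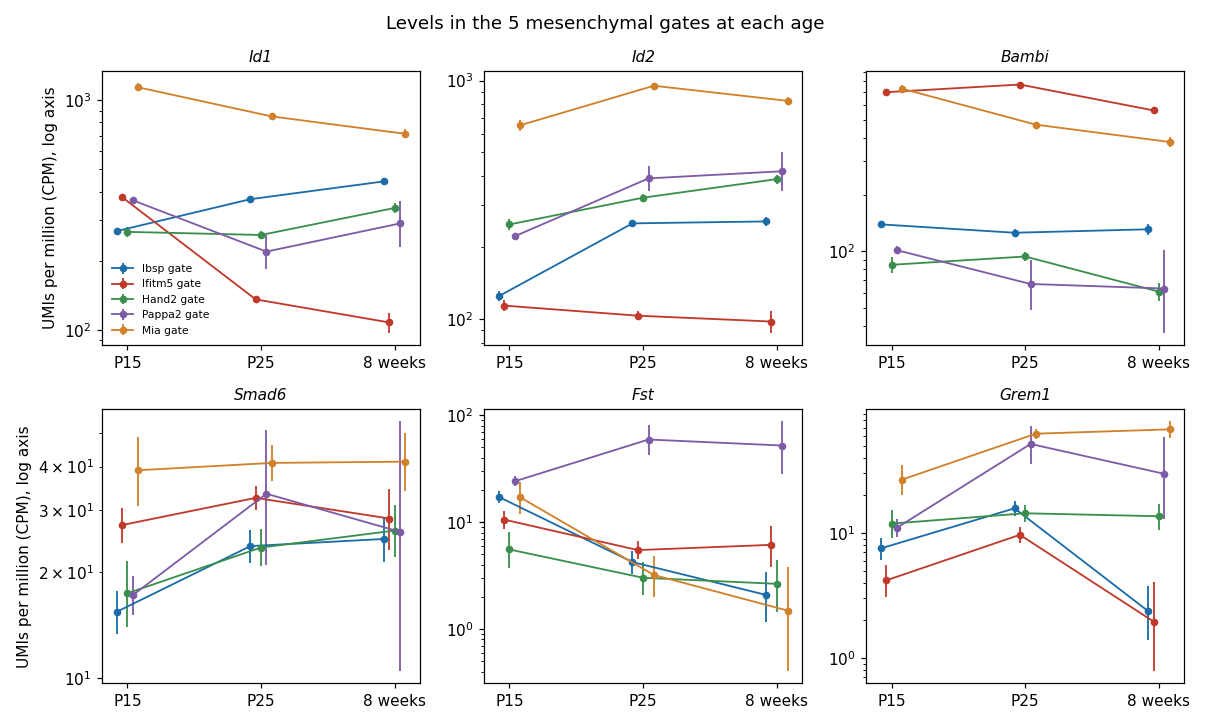
Levels of 6 genes in CPM (log axes) at each age in 5 mesenchymal gates, with exact Poisson 95% intervals and 1 library per age. Id1 is higher with age in the Ibsp gate and lower in the Ifitm5 gate, and Fst is lower at 8 weeks than at P15 in each gate shown but Pappa2.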

How the data were processed

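The authors deposited UMI counts per gene and cell, not normalized, made with Cell Ranger (version 6.1.2 in the file headers of P15 and P8w, and 6.0.1 in that of P25) on mm10 per the submitters' notes. All 27089 cells were kept, with no doublet removal except as an alternative. Identifiers joined the genes across libraries, and 4.8% of the P25 UMIs fell on genes outside the shared set. CPM were computed over the shared genes. Cells past Ptprc, Krt14 or Rgs5 and another gate were left out as mixed (61, 50 and 6 cells). Otherwise Ifitm5 took precedence over Ibsp, and Ibsp over the highest of Hand2, Pappa2 and Mia relative to its threshold.

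Sums of at least 20 cells were compared with edgeR 4.0.16 in R 4.3.3 (TMM, filterByExpr, robust quasi-likelihood fit), without a block, by a script tested on simulated data. The SE given with a log2 fold change was derived from the test, as the absolute log2 fold change divided by the square root of the edgeR F statistic. DESeq2 1.42.0 was an alternative. Sums of 1 library come from the same sorted cells, so the library pairs them. As deviations from gate means they correlated at 0.156 to 0.718, against at most 0.0788 between libraries. Taking off the gate mean itself lowers the values between libraries, so this contrast is no test of the pairing. The main fit leaves the pairing out, and the block takes it in. Ratios between ages in single gates used plain CPM. The mean over gates and the log2 ratios of Id1 flagged below used TMM-scaled CPM. The 9 genes, the gates and the lists were chosen with earlier results of these data known. The text names all 9, up to 4 other pathway genes per direction and comparison by log2 fold change, and the 2 genes most like each. Alternatives changed the gates, cells, gene join, size factors, test, filter, block, size of sums and libraries. Positions are from GENCODE vM21 (GRCm38).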

Additional observations from a re-analysis of the deposited data

Results flagged for a closer look

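Id1 differed with age in opposite directions in the Ibsp and Ifitm5 gates. On TMM-scaled CPM the log2 ratio of 8 weeks to P15 was 0.68 in the Ibsp gate and -1.71 in the Ifitm5 gate. In plain CPM the ratio itself was 1.65 (1.57 to 1.73) and 0.285 (0.256 to 0.316). P25 lay on the same side of P15 as 8 weeks in both gates, with separate counting intervals. With 1 library per age the difference was not tested.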

How the results depend on the processing

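Of the 27 calls of single genes, 9 were kept under every alternative that tested them (Chrd was not tested in the thinned sums): Bambi in the Ifitm5 and Mia gates, Id2 in the Mia gate, Chrd, Fst, Id3 and Smad6 in the Krt14 gate, and Id3 and Smad6 in the Ptprc gate. Leaving out P25 kept 11 of 27, leaving out P8w 19 of 27 and leaving out P15 25 of 26. With a library left out, the number of the 9 genes called ranged from 1 to 4 in the Ifitm5 gate, from 0 to 2 in the Hand2 and Pappa2 gates, from 2 to 6 in the Mia gate, from 5 to 8 in the Krt14 gate, from 2 to 8 in the Ptprc gate and from 0 to 3 for Ifitm5 against Ibsp. Without P15 the Rgs5 comparison has no sum and was not computed. The mesenchymal mean of the other comparisons then runs over the gates left, without Rgs5. Gates of 3 UMIs gave 0 in the Hand2 and Pappa2 gates and 4 in the Krt14 gate, and the log2 fold change of Grem1 turned to 2.59 in the Rgs5 gate (called) and 0.15 in the Krt14 gate (not called). Looser gates gave 0 in the Rgs5 and Pappa2 gates. The Pappa2 gate also gave 0 with cells past exactly 1 gate, with sums of at least 50 cells and with sums of at least 10 cells, and 2 without the 6% highest Scrublet doublet scores. DESeq2 gave 2 in the Hand2 and Pappa2 gates, and thinned sums gave 1 in the Ifitm5 gate. For Ifitm5 against Ibsp the number was 3 with cells past exactly 1 gate and 2 when Ibsp-gated cells past the Hand2 gate were left out. The sums of 10 cells and the Ibsp gate without those cells were chosen after seeing the data. The library as a replicate block gave 2 in the Hand2 gate (adding Fst) and 2 for Ifitm5 against Ibsp (adding Nog), added Smad6 in the Mia gate and Grem1 (0.0468) and Fst (0.0397) by adjusted p in the Ptprc gate (edgeR), and changed no other call. Over all genes the block called 506 higher and 259 lower in the Ibsp gate against 331 and 121, 543 and 391 in the Hand2 gate against 325 and 215, and 426 and 214 for Ifitm5 against Ibsp against 174 and 69. Without P25 the Ifitm5 gate had 243 genes higher and 40 lower of all tested, against 1067 and 560, and the Mia gate 337 and 120, against 1106 and 667, while the Hand2 and Pappa2 gates had 0 calls among all genes by edgeR (1427 and 1037 genes with an unadjusted p under 0.05). RLE size factors moved the median log2 fold change of all genes in the Ptprc gate from -0.03 to 0.10. The mean log2 ratio of 8 weeks to P15 for Smad6 moved to 0.76 with gates of 3 UMIs and to -0.41 in cells thinned to 3000 UMIs, where the 21 Pappa2-gated cells at 8 weeks held no Smad6 UMI. The other causes were not tested. Cell number limits the Pappa2, Rgs5 and Ptprc gates most, with 22, 12 and 17 cells at 8 weeks.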
